A study of Rattus norvegicus with 16 samples.

Results

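The genes described here are 9 genes by which cells of the monocyte lineage are recognised: the transcription factors Spi1, Irf8 and Klf4, the receptors Csf1r, Cx3cr1 and Ccr2, the scavenger receptor Cd163, the lysosomal protein Cd68 and the lysozyme Lyz2. Their rows were taken by symbol, without regard to case, and no measured value enters that rule. Of the 9, 8 were found, each as 1 entry listed in every library, among 18031 genes that every library lists. No row carried the symbol Ccr2, so that gene was not analysed here and the ratio of Cx3cr1 to Ccr2, by which monocyte subsets are told apart, was not computed. Whole blood was drawn by needle from the heart of 16 male Sprague-Dawley rats, 85 to 90 days old and obtained from Charles River. Every rat had 4 injections of 1 ml/kg normal saline, spaced by 2 h, went without food and water meanwhile, and was killed 3 h after the final injection. All 16 libraries are labelled as saline controls and form 1 group, so no treatment was compared. The questions are how steady each gene was from rat to rat, whether it moved with a code that each deposited file bears in its name (the run code), and which genes moved with it. Controls 1 to 3 carried run code A, controls 4, 5, 7, 8 and 10 code B, controls 6 and 9 code C, and controls 11 to 14 code D, while controls 15 and 16 each had a code of their own (E and F). The labels do not explain the codes. The study reports that its control rats came from replicate experiments carried out on separate dates. The labels give no date for any rat and do not say whether the codes follow the dates. Slopes and correlations over the 16 libraries may therefore pool separate experiments.

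Monocytes arise in the bone marrow from progenitors that the transcription factor PU.1, encoded by Spi1, commits to the myeloid fate. Irf8 favours the monocyte and dendritic cell branch over the granulocyte branch and Klf4 acts downstream of it, and the growth factor receptor Csf1r keeps monocytes and macrophages alive. Several of these genes are not restricted to monocytes: neutrophils also express Spi1 and Lyz2, B cells express Spi1 and Irf8, and natural killer cells express Cx3cr1.

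The libraries held 21466776 to 31189549 counts, and 3 counts, taken as the smallest detectable amount, corresponded to 0.096 to 0.14 CPM (counts scaled to a common library total). Intervals and floors of this kind cover counting error only. Markers of T cells, B cells, natural killer cells, neutrophils, platelets and red cells were present in every library. Transcripts of other tissues stood out in some libraries. The liver gene Alb was at 331541 normalized counts in control 2 and at 11446 in control 8, the next highest. Control 12 held 4205 of the recombinase gene Rag1, against at most 23.4 elsewhere, and 1046 of the fat gene Adipoq, against at most 68.8. Control 10 held 205 of the heart muscle gene Mb, against at most 28.1. Some results below are also given without controls 2, 8 and 12, and where none is given, none is implied. The fit that held the levels of both Spi1 and Csf1r was run on all 16 libraries only. Control 10 was left out only singly. Normalized counts are counts divided by DESeq2 size factors, and a log2 level is log2(normalized count + 1).

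Spi1, the factor whose dose steers myeloid differentiation, had the highest coefficient of variation (SD as a percentage of the mean) of the members after Cd163. Its lowest level was 966 normalized counts in control 4, its median 2731 and its highest 6913 in control 8, a range of 7.16-fold. The mean was 2748 ± 1716 (SD, n = 16). The levels fell into a lower stretch of 966 to 1278 normalized counts (controls 2, 3, 4, 6, 10 and 12) and an upper one from 2190 upwards, with no library between. Both stretches held libraries of run codes A, B, C and D. Irf8, an interferon regulatory factor, was the steadiest member. It ran from 216 in control 8 over a median of 378 to 618 in control 6, with a mean of 381.3 ± 90.5 (SD, n = 16). Apart from control 6 no library exceeded 470.1 normalized counts. Klf4, the factor that acts downstream of Irf8, averaged 648.2 ± 212 (SD, n = 16). Its levels were 289 in control 12, 643 at the median and 1006 in control 1, with control 16 close behind at 975.5.

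Csf1r, the receptor for the growth factors CSF1 and IL-34, averaged 2353 ± 755 normalized counts (SD, n = 16). It ran from 1024 in control 12 over a median of 2348 to 3648 in control 6, and control 1 reached nearly the same level with 3610. Cx3cr1, the receptor for fractalkine, ranged 8.98-fold, from 40.3 in control 8 to 362 in control 3, with a median of 181. Its mean was 191.5 ± 86.0 (SD, n = 16). Control 8, the library with the most Spi1, thus had the least Cx3cr1 and the least Irf8. Of the ligands of these receptors Csf1 averaged 942.3 ± 416 normalized counts (SD, n = 16). Il34 averaged 1.59 with 4 libraries at 0, and the fractalkine gene Cx3cl1 averaged 1.07 with 7 libraries at 0, so both lay near the smallest detectable amount.

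Cd163, the receptor that takes up haemoglobin bound to haptoglobin, was scarce. Controls 5, 6 and 16 held 0 counts of it. There 3 counts correspond to 0.1085, 0.1156 and 0.1284 CPM. In all, 7 libraries held 3 counts or fewer. The median was 8.37 and the highest level 116 normalized counts, in control 11, followed by 37.6 in control 1. The mean was 19.4 ± 29.2 (SD, n = 16). Cd68, a glycoprotein of lysosomes that is abundant in macrophages, averaged 535.2 ± 184 (SD, n = 16). It was lowest in control 4 at 292, had a median of 509 and was highest in control 11 at 882. Lyz2, which encodes the lysozyme of myeloid cells, took the place 21 of all genes by mean level. It ran from 67516 in control 6 over a median of 188680 to 316453 normalized counts in control 8 and averaged 189856 ± 78064 (SD, n = 16). A near-identical copy of the lysozyme gene lies beside it in the rat genome, so the division of reads between the copies is uncertain. Levels were not ranked between members, since no transcript lengths were at hand.

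**Figure D1:**
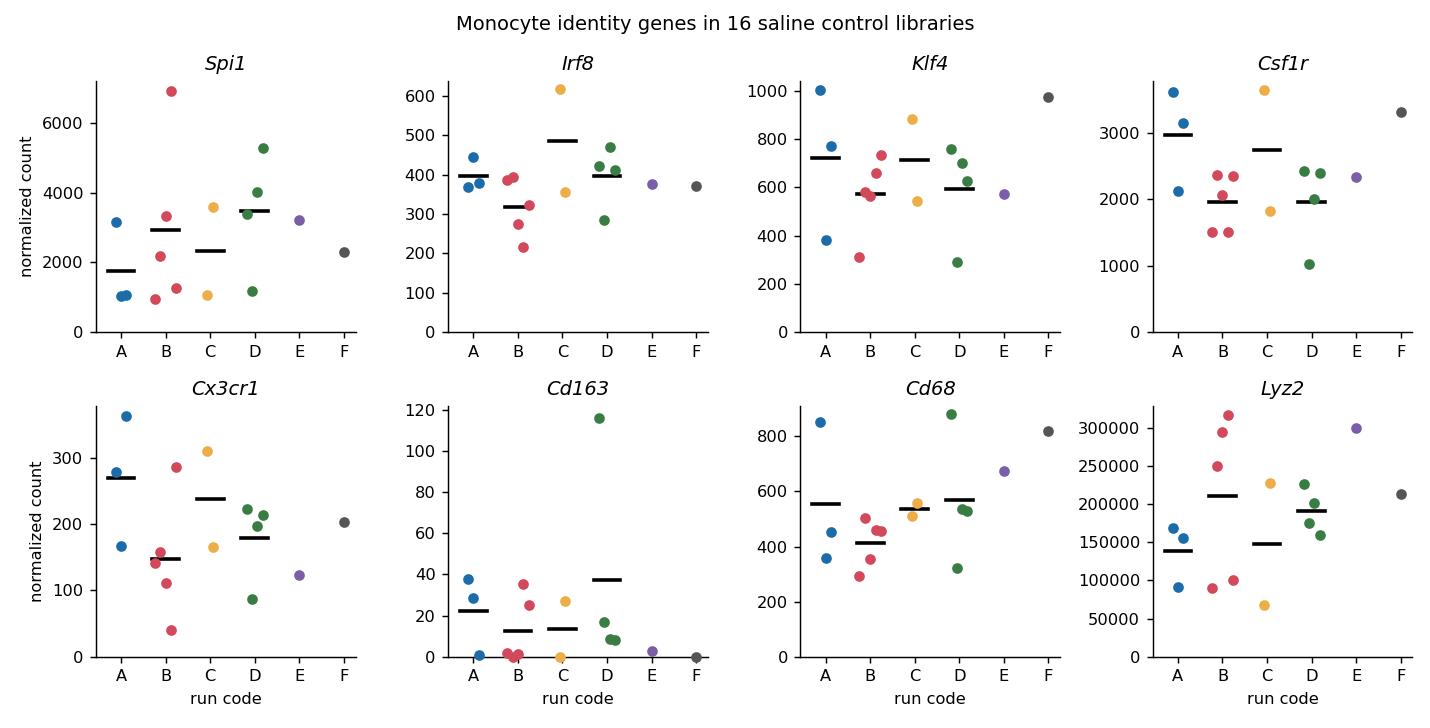
Normalized counts of the 8 members (vertical axes, linear and starting at 0) in each of the 16 libraries (points), arranged by run code (horizontal axis), with a bar at the mean of each code that has at least 2 libraries. Spi1 spreads from 966 to 6913 and Irf8 from 216 to 618, codes A, B and D overlap in every panel, and the 116 of Cd163 in control 11 stands above all other libraries.

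The spread between animals exceeded counting error for all 8 members. The coefficient of variation was 62.4% for Spi1, 44.9% for Cx3cr1, 41.1% for Lyz2, 34.4% for Cd68, 32.6% for Klf4, 32.1% for Csf1r and 23.7% for Irf8. Counting error alone would give between 0.23% (Lyz2) and 7.03% (Cx3cr1) for these genes. The median coefficient of all 8680 genes with a mean of at least 100 normalized counts was 24.8%. Of those genes, 92.7% varied less than Spi1 and 46.4% less than Irf8. For Cd163 the coefficient was 150.4%, with 21.5% expected from counting at its mean count.

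No member differed between run codes A, B and D, the 3 codes with at least 3 libraries. Csf1r had the lowest unadjusted p of the members, 0.0666 for A against B. It lay at 2960 ± 765 normalized counts in code A (SD, n = 3), at 1960 ± 428 in code B (SD, n = 5) and at 1961 ± 654 in code D (SD, n = 4), and the lowest library of code A, with 2118, was under the highest of code B, with 2358. The log2 fold change of B over A was -0.61 ± 0.30 (SE, edgeR quasi-likelihood test, adjusted p = 0.411). For Cx3cr1 it was -0.89 ± 0.50 (SE, edgeR adjusted p = 0.464), for Spi1 0.71 ± 0.67 (SE, edgeR adjusted p = 0.664), and the highest log2 fold change of Spi1 was 0.98 ± 0.70 for D over A (SE, edgeR adjusted p = 0.926). Of the 8 members 0 passed in any of the 3 comparisons, by edgeR, DESeq2 or limma, and 0 had an unadjusted p under 0.05 in edgeR. Over all 12952 genes tested edgeR called 0% in the comparison of A with B (13.6% had an unadjusted p under 0.05), 0% in that of A with D (5.41%) and 2.3% in that of B with D, so 0 of 8 members is close to what the background gives. In simulated counts the test for A against D found 62.2% of genes changed 4-fold but 5.0% of genes changed 2-fold, so a 2-fold difference of a member would usually have been missed. DESeq2 called 4.35% and limma 0.0463% of genes for A against B, and 0.108% and 0.0154% for A against D.

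**Figure D2:**
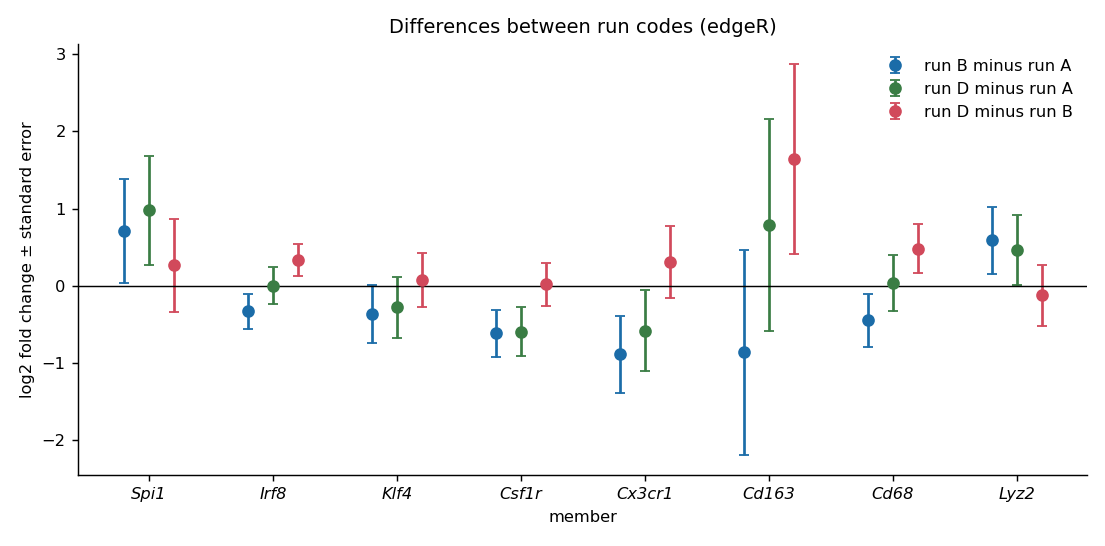
Log2 fold change between run codes A, B and D for each member (points) with its standard error (bars), from edgeR over 12 libraries. The fold changes lie between -0.89 and 1.65, the widest error bars belong to Cd163, and none of the 24 values passed the test.

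All 8 members passed the filter on low counts. For each member a slope was fitted over the 16 libraries for every other gene, as the log2 change of that gene per unit of log2 level of the member, and a pair of members was called where both slopes had an adjusted p under 0.05 over all genes tested. Of 28 pairs, 1 was called, Spi1 with Lyz2. Of the 7 other members 1 rose with Spi1, and 1 of 7 rose with Lyz2. Over all 12760 genes tested 14.6% rose with Spi1 and 9.35% with Lyz2, so 1 of 7 is close to what the background gives. Lyz2 rose by 0.54 ± 0.14 per unit of Spi1 (SE, edgeR adjusted p = 0.00801) and Spi1 by 1.04 ± 0.25 per unit of Lyz2 (SE, edgeR adjusted p = 0.0125). Pearson's r of their log2 levels was 0.755 (permutation p = 0.00084) and Spearman's rho 0.685 (permutation p = 0.0043), both two-sided and not adjusted over the 28 pairs. Centred on the mean of each run code, the levels gave r = 0.753 over 14 libraries, since codes E and F hold 1 library each. Controls 4 and 2 lay farthest from the median of Spi1, and r was 0.667 when both were left out. The pair was called after leaving out any single library. It was not called without controls 2, 8 and 12 together, where the edgeR adjusted p values were 0.0522 and 0.0766, nor without the 2 farthest libraries, where they were 0.0569 and 0.0832.

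Klf4, Csf1r, Cx3cr1 and Cd68 each had their highest r with another of these genes and not with Spi1. Not all pairs among them were close. Klf4 with Cx3cr1 had r = 0.497 and rho = 0.735. Cx3cr1 with Cd68 had r = 0.357 and rho = 0.353, below the r = 0.476 and rho = 0.529 of Spi1 with Cd68. Klf4 and Csf1r had r = 0.832 (permutation p = 2e-05) and rho = 0.818 (permutation p = 0.00019), with 0.838 after centring and 0.683 without controls 12 and 4. Their slopes of 0.77 ± 0.15 and 0.88 ± 0.16 (SE) did not pass over all genes (edgeR adjusted p = 0.0952 and 0.0623), and the pair was called without control 8, without a filter on low counts and with scaling by total counts. Csf1r and Cx3cr1 had r = 0.75 and rho = 0.812, Klf4 and Cd68 r = 0.774 and rho = 0.615, and Csf1r and Cd68 r = 0.634 and rho = 0.535. None of these 3 pairs was called, with edgeR adjusted p values from 0.0952 to 0.577. Klf4 with Cd68 was called without a filter on low counts, and with scaling by total counts both this pair and Csf1r with Cx3cr1 were called. Spi1 and Csf1r had r = -0.04 and rho = -0.15, a slope of -0.06 ± 0.14 for Csf1r on Spi1 (SE, edgeR adjusted p = 0.772). Irf8 had its highest r with Cx3cr1 at 0.714, but rho was 0.479, and r fell to 0.398 without controls 8 and 6. Irf8 with Cx3cr1 was called only with scaling by total counts. Both Irf8 and Cx3cr1 had negative r with Lyz2, of -0.56 and -0.52, and neither pair was called. Of the 28 values of r, 18 were positive and 26 kept their sign after centring within run codes.

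**Figure D3:**
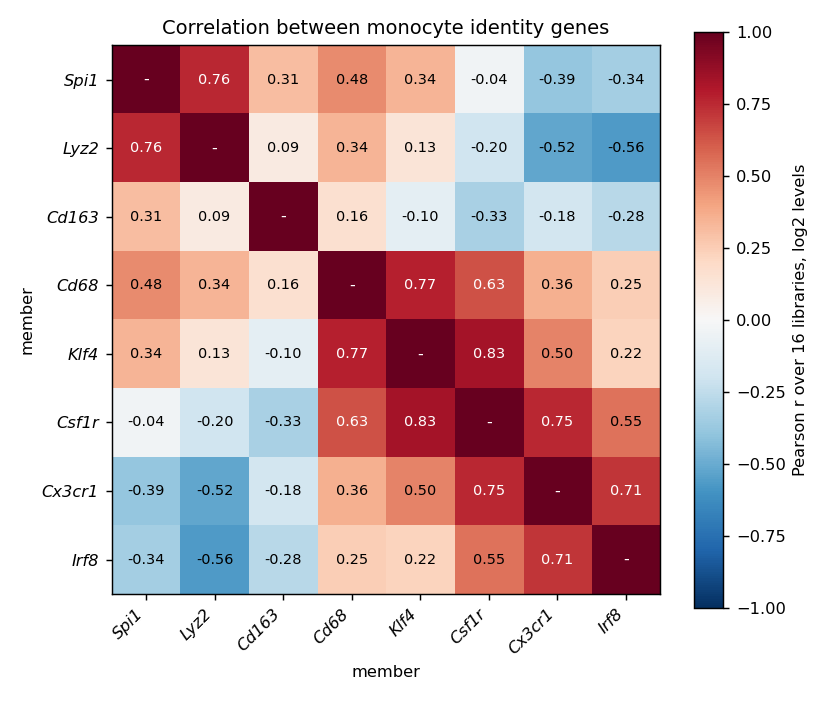
Pearson's r between the log2 levels of each pair of members over the 16 libraries (colour and number, from -1 in blue to 1 in red). Spi1 and Lyz2 share 0.76, Klf4, Csf1r, Cx3cr1 and Cd68 share 0.36 to 0.83, and Spi1 and Csf1r share -0.04.

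Spi1 moved together with a wide set of myeloid genes and against lymphocyte genes. Of 12760 genes, 14.6% rose and 10.7% fell with its level (edgeR adjusted p under 0.05). Of the neutrophil markers 18 were found, 12 passed the filter on low counts, and 11 of these 12 rose. S100a8, a calcium-binding protein abundant in neutrophils, ran from 8379 normalized counts in control 6 over a median of 56513 to 383785 in control 8. The chemokine receptor Cxcr2 (r = 0.94) had a slope of 1.16 ± 0.12 (SE, edgeR adjusted p = 1.71e-06), the elastase gene Elane (r = 0.93) 1.41 ± 0.16 (SE, edgeR adjusted p = 4.03e-06) and S100a8 (r = 0.91) 1.56 ± 0.20 (SE, edgeR adjusted p = 1.49e-05). The neutrophil list had a median slope of 1.5, against -0.05 over all genes. The granule gene Ngp was the neutrophil marker that was not called. Without controls 2, 8 and 12 the count was again 11 of 12. The summed level of the 18 neutrophil markers ran from 31115 normalized counts in control 6 to 1134928 in control 8, and its part in the other slopes on Spi1 and Lyz2 was not tested.

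Among the growth factor receptors and ligands around the CSF1 and chemokine axes 4 of 7 tested rose with Spi1 and 0 fell. These were the receptor chains Csf2ra, Csf3r and Csf2rb, for GM-CSF, G-CSF and the shared beta chain, together with Ccl2. Csf3r, the receptor that drives neutrophil production, was at 5726 in control 6, 16171 at the median and 59826 normalized counts in control 8, and its slope was 1.09 ± 0.09 (r = 0.96, SE, edgeR adjusted p = 2.82e-07). Of the surface genes of monocytes and macrophages 11 of 23 rose and 1 fell, of the adaptor, lysosomal and phagocyte genes 12 of 19 rose and 1 fell, and of the myeloid transcription factors 8 of 17 rose. Genes of close relation to Spi1 were Fcgr2a, Ccr1 and Itgam at the surface, the cathepsin gene Ctsz among phagocyte genes, and Cebpd, Cebpb and Tfec among the factors, with r from 0.83 to 0.96. Fcgr2a is a receptor for antibody, Itgam an integrin chain, and Cebpb and Cebpd are partners of PU.1 in myeloid genes. Several genes typical of monocytes were not called with Spi1, such as the non-classical marker Spn and the fatty acid receptor Cd36, and Cd4, which rat monocytes carry as well as T cells, fell. In haem handling 2 of 11 rose, Slc11a1, an iron transporter of phagosomes, and Hmox1, the haem-degrading enzyme, a share close to that of all genes.

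Of the T-cell markers 10 of 16 fell with Spi1 and of the B-cell markers 7 of 13, and 0 of either rose. Cd3e, a chain of the T-cell receptor complex, ran from 1018 normalized counts in control 8 over 1753 to 2782 in control 12. Its slope was -0.35 ± 0.08 (SE, edgeR adjusted p = 0.00423), and that of Cr2, a complement receptor of B cells, was -0.42 ± 0.12 (SE, edgeR adjusted p = 0.0155). These falls were small, with a median slope of -0.24 for the T-cell and -0.3 for the B-cell list, and they rested on some libraries and on the scaling. Without controls 2, 8 and 12 the counts were 1 of 16 and 0 of 13, and with scaling by total counts 0 of 16 and 0 of 13, with median slopes of -0.18 and -0.2. Under that scaling the genes that rose with Spi1 numbered 1347 and those that fell 95, against 1857 and 1361. In whole blood fewer cells of a type and less RNA per cell cannot be told apart. Of natural killer cell markers 1 of 12 rose (Klrb1b) and 0 of 11 platelet and 0 of 10 red cell markers were called. One of 8 dendritic cell markers fell (Cd1d1) and 1 of 10 tissue macrophage markers rose (Msr1). Among markers of tissues outside the blood 0 of 11 liver and 0 of 2 heart muscle genes were called. Of 6 fat genes 1 rose (Cfd) and 2 fell (Pparg and Car3), and of 4 immature lymphoid genes 3 fell (Myb, Dntt and Rag1). The slope of Rag1 on Spi1 was -3.63, and -0.44 with an edgeR adjusted p of 0.351 without control 12.

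The 3 genes closest to Spi1 among 8373 searched were Nadk, which makes NADP, the Src-family kinase Fgr of myeloid cells, and Ier5, all with r = 0.98 over the 16 libraries. They were picked by this r, which is a description. Nadk ran from 3841 to 18718 normalized counts, Fgr from 2504 to 15860 and Ier5 from 154 to 843.

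**Figure D4:**
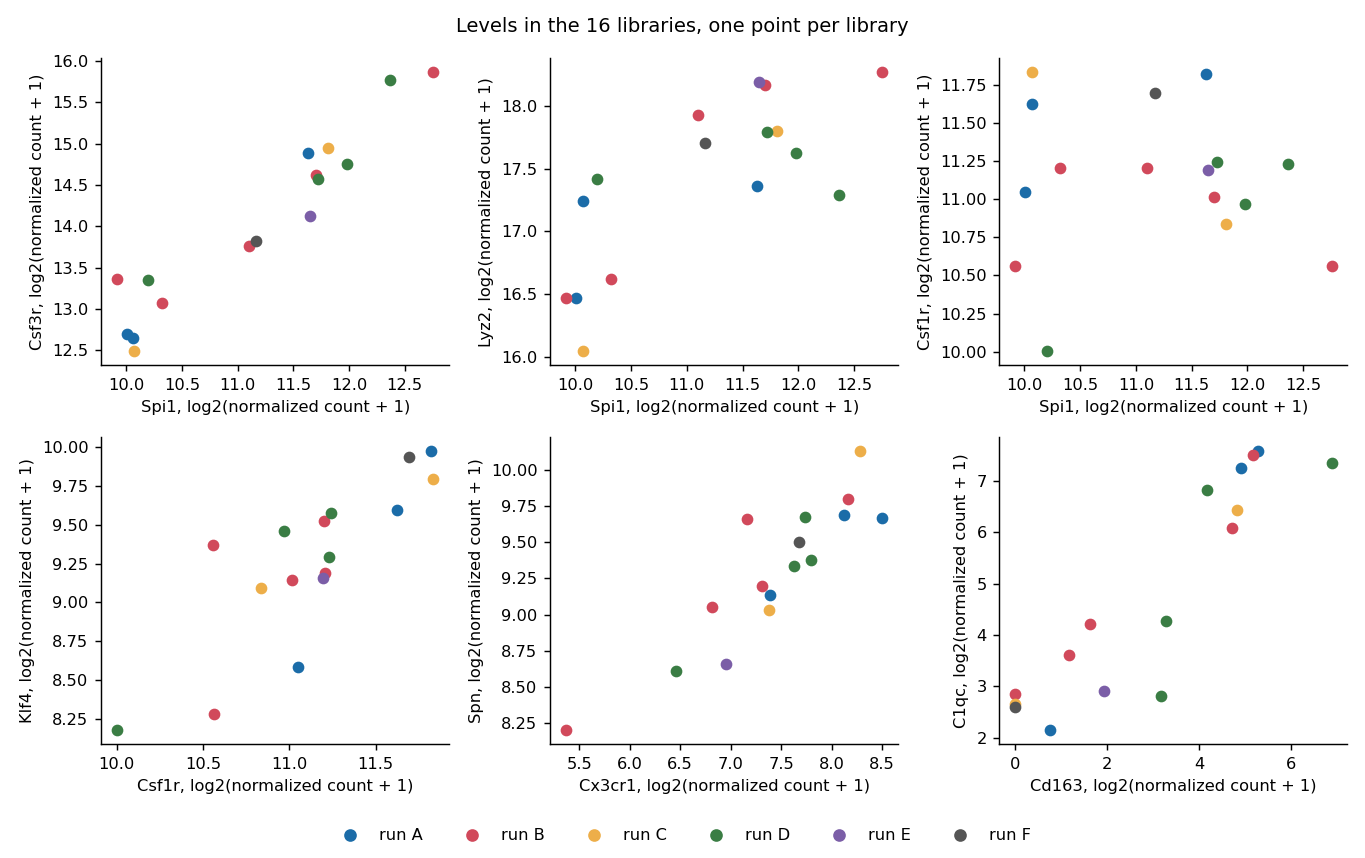
Log2 levels, log2(normalized count + 1), of 6 pairs of genes, 1 point per library, coloured by run code. Csf3r follows Spi1 closely (r = 0.96) and Lyz2 less so (0.76), Csf1r shows no trend with Spi1 (-0.04), and Klf4 follows Csf1r (0.83), Spn follows Cx3cr1 (0.89) and C1qc follows Cd163 (0.91).

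Lyz2 resembled Spi1 in the lists it moved with. Of 12760 genes 9.35% rose and 6.1% fell with Lyz2. Of the neutrophil markers 10 of 12 rose, of the adaptor, lysosomal and phagocyte genes 11 of 19, of the surface genes 8 of 23 rose and 2 fell, of the growth factor and chemokine axes 4 of 7 rose, and of the myeloid factors 3 of 17 rose. The closest phagocyte genes were the galectin Lgals3, the adaptor Tyrobp and Lst1. Lgals3 ran from 962 to 5775 normalized counts and had a slope of 1.09 ± 0.12 (r = 0.93, SE, edgeR adjusted p = 0.000766), and Tyrobp, which passes on signals of activating receptors, had 0.93 ± 0.11 (r = 0.93, SE, edgeR adjusted p = 0.000766). Csf1 was the closest of the growth factor and chemokine axes, with a slope of 0.76 ± 0.20 (r = 0.74, SE, edgeR adjusted p = 0.0211). Of the B-cell markers 2 of 13 fell, with Cd22 among them, and of the T-cell markers 0 of 16. Without controls 2, 8 and 12 the neutrophil count was 6 of 12 and that of phagocyte genes 7 of 19. Of the remaining lists, 1 of 11 haem genes (Slc11a1), 1 of 10 tissue macrophage genes (Msr1), 1 of 12 natural killer genes (Klrb1b) and 1 of 6 fat genes (Cfd) rose, 1 of 8 dendritic genes rose and 1 fell, and 1 of 11 liver genes fell. Beside Lgals3 the genes of highest r were Eif4e3 (0.94), a translation factor, and the adhesion receptor Cd44 (0.93). With run code as a term Lyz2 rose by 0.51 per unit of Spi1 (edgeR adjusted p = 0.0324).

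Since PU.1 binds a short purine-rich sequence, the PU box GAGGAA, the 250 bases before the start of each member were searched for it on both strands (its other strand reads TTCCTC), a search made after the pair of Spi1 and Lyz2 had been seen. The letters contain the GGAA core shared by other ETS factors, so a match is not particular to PU.1. RefSeq promoters (build GRCr8, not the build of the counts) were at hand for 7 of the 8 members, all but Spi1. The box was found in Lyz2, Cd68 and Csf1r and not in the other 4, and 23.3% of all 33469 promoters hold it. Csf1r, whose r with Spi1 was -0.04, held 2 boxes, beginning 229 and 95 bases before the start. A match is a description of the letters and not evidence of binding. The windows of Lyz2 and Cd68 are shown with the box in capitals. Lyz2 was called with Spi1. Cd68 was not called in the fit on Spi1 alone (r = 0.48, edgeR adjusted p = 0.123) but rose with Spi1 in the fit that also held Csf1r, given below. Klf4, in which no box was found, rose with Spi1 in that fit too (0.20 ± 0.06 per SD, SE, edgeR adjusted p = 0.0256). In Lyz2 (chr7:54798012-54798261, minus strand) the box begins 46 bases before the start, and in Cd68 (chr10:54882442-54882691, minus strand) 27 bases before.
Lyz2: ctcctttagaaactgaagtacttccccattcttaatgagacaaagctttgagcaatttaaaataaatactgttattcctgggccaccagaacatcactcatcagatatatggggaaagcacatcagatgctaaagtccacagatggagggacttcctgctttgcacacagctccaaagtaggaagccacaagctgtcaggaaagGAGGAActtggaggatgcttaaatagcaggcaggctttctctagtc
Cd68: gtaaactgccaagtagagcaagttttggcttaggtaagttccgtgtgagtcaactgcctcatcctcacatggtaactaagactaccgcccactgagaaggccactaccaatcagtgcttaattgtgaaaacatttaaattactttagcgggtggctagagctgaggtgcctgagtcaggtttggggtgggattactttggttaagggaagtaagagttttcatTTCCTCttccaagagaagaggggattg

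**Figure D5:**
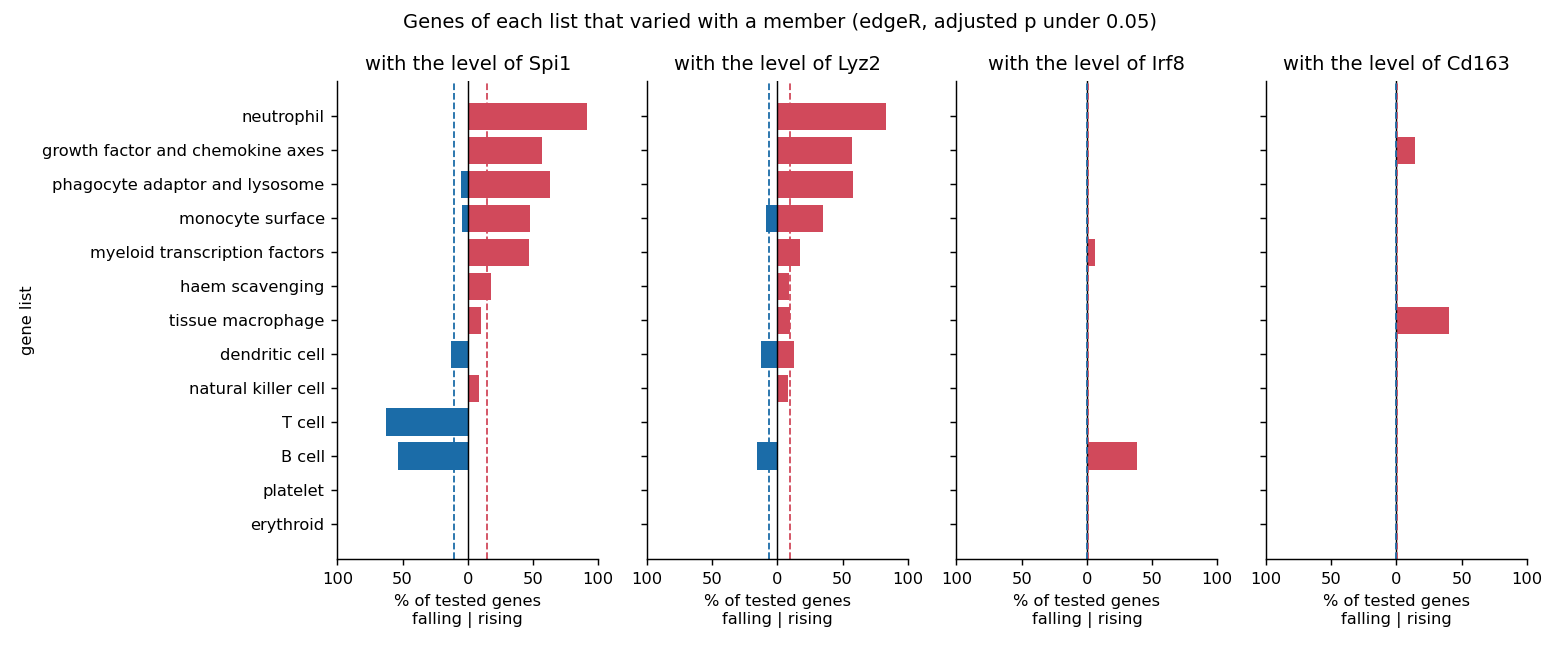
Share of the tested genes of 13 marker lists (vertical axis) that rose (red, to the right) or fell (blue, to the left) with the level of Spi1, Lyz2, Irf8 and Cd163 (edgeR adjusted p under 0.05), with the share over all genes as dashed lines. With Spi1 11 of 12 neutrophil markers rose and 10 of 16 T-cell markers fell, although the T-cell falls were lost with scaling by total counts and all but 1 without controls 2, 8 and 12; with Irf8 5 of 13 B-cell markers rose and with Cd163 4 of 10 tissue macrophage markers.

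Whether the slope of a gene differed between Spi1 and Csf1r was tested in 1 fit that held both levels, each per SD, an alternative chosen after the data had been seen. This fit was run on all 16 libraries only. The difference is signed, so a gene that falls with Spi1 and is level with Csf1r has a negative one. Of 13020 genes 10.4% had a positive and 3.39% a negative difference, Spi1 slope minus Csf1r slope (edgeR adjusted p under 0.05). Of the neutrophil markers 11 of 13 had a positive difference, and of the surface genes 11 of 23 had a positive and 3 a negative one. The slope of Csf3r was 1.02 ± 0.08 per SD of Spi1 and -0.14 ± 0.08 per SD of Csf1r, a difference of 1.16 ± 0.12 (SE, edgeR adjusted p = 4.74e-06). Cx3cr1 went the other way, with -0.22 ± 0.12 on Spi1 and 0.57 ± 0.12 on Csf1r, a difference of -0.79 ± 0.17 (SE, edgeR adjusted p = 0.0041). Klf4 also had a negative difference, of -0.26 ± 0.08 (SE, edgeR adjusted p = 0.0431), while rising with both, and Lyz2 a positive one of 0.59 ± 0.17 (SE, edgeR adjusted p = 0.0312). For Cd68 the difference was -0.07 ± 0.11 (SE, edgeR adjusted p = 0.752). In this fit Cd68 rose with Spi1 by 0.26 ± 0.08 per SD (SE, edgeR adjusted p = 0.0297). With Klf4 and Lyz2 that made 3 of 6 members rising with Spi1, against 1850 of all 13020 genes. Of the T-cell markers 0 of 16 and of the B-cell markers 4 of 13 differed, the latter with a negative difference. For Cd22 the slopes were -0.24 on Spi1 and 0.24 on Csf1r, and of the B-cell markers 0 of 13 were called on Csf1r in this fit.

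Few genes moved with Csf1r itself. Of 13021 genes 0.0307% rose and 0.023% fell, which are 4 and 3 genes. Its closest genes were Limk1, a kinase of the actin cytoskeleton (r = 0.95), the semaphorin receptor Plxnb2 (0.90) and Pld4, a nuclease of endosomes (0.89). Limk1 averaged 295 normalized counts and ran from 138 in control 12 to 464 in control 6, the libraries that were also lowest and highest in Csf1r. Of the 17 lists, counts were above 0 only for the immature lymphoid genes, where Rag1 fell with a slope of -4.38 ± 0.75 (SE, edgeR adjusted p = 0.0365). That slope was set by the 4205 normalized counts of control 12, the library lowest in Csf1r, and was 1.35 without it. None of the surface genes was called, the closest being Clec4a3 and Spn (r = 0.68 and 0.67), and of the haem genes Lrp1, an endocytic receptor (r = 0.81), missed the threshold (edgeR adjusted p = 0.0781).

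With Klf4 0.00768% of 13021 genes rose, which is 1 gene, and 0% fell. Single libraries changed this balance: without control 4 there were 10 rising and 189 falling genes, without control 8 15 and 82, without control 12 2 and 107, and without a filter on low counts 15 and 284. The 1 gene was Limk1 again (r = 0.93, slope 0.81 ± 0.10, SE, edgeR adjusted p = 0.00539). RGD1304694 and Tbc1d9 followed with r of 0.87 and 0.83. No list held a called gene. The factors Irf5, Nr4a1 and Klf2 were closest among myeloid factors, with r of 0.69, 0.63 and 0.63. Nr4a1, which non-classical monocytes need in mice, had r = 0.72 with Csf1r and 0.68 with Cx3cr1, without passing (edgeR adjusted p = 0.142 and 0.145).

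With Cx3cr1 0.0521% of 13436 genes rose, which are 7 genes, and 0% fell. Of the surface genes 1 of 23 was called, Spn, which encodes leukosialin (CD43) and marks non-classical monocytes in the rat. No other list held a called gene. In whole blood the cells that held the Spn transcripts could not be told apart. Spn was lowest in control 8 at 294 normalized counts and highest in control 6 at 1120, and its slope was 0.60 ± 0.08 (r = 0.89, SE, edgeR adjusted p = 0.0092). Without control 8, which holds the least of both genes, the slope was 0.63 and the adjusted p 0.251, without control 6 the adjusted p was 0.0504, and without controls 2, 8 and 12 it was 0.576. The number of genes called with Cx3cr1 ranged from 0 (without control 6 or without control 8) to 291 (without control 4) when 1 library was left out. The next closest genes were Npc1, a cholesterol transporter of lysosomes (r = 0.87), and the channel gene Calhm2 (0.86).

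With Cd68 0% of 12517 genes were called by edgeR and by limma, and 1478 genes had an unadjusted p under 0.05. Without control 4, the library lowest in Cd68, 297 genes were called. Of the adaptor, lysosomal and phagocyte genes 0 of 19 were called, with r from -0.14 (Ctsd, Lgmn) to 0.80. Psap, which encodes the saposin precursor, had r = 0.80 and a slope of 0.71 ± 0.16 and Grn, the progranulin gene, r = 0.74 and 0.94 ± 0.21 (SE, edgeR adjusted p = 0.117 and 0.118). The 3 genes of highest r were 2310047M10Rik (0.86), the channel subunit Lrrc8d (0.85) and fibronectin Fn1 (0.85).

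Irf8 moved with B-cell genes. Of 13021 genes 0.63% rose and 0.0307% fell, and of the B-cell markers 5 of 13 rose, with Cd22, Faim3, EBF1 and Blk among them. Cd22, an inhibitory receptor of B cells, ran from 577 normalized counts in control 8 over 1239 to 2332 in control 6, and its slope was 1.28 ± 0.15 (r = 0.93, SE, edgeR adjusted p = 0.00307). Faim3, a receptor for IgM, had 1.40 ± 0.18 (r = 0.92, SE, edgeR adjusted p = 0.00307), and Bcl11a, a factor of B cells and plasmacytoid dendritic cells, came next with r = 0.90. Controls 6 and 8 are the highest and the lowest library for Irf8 and for these genes, and the relation rested on them: 0 genes were called without control 6, 0 without control 8 and 0 with run code as a term. The summed level of the B-cell markers was likewise lowest in control 8 at 7488 normalized counts and highest in control 6 at 24844, and its part in the slopes was not tested. The slope of Cd22 was 1.26 without control 6 and 1.19 without control 8 (edgeR adjusted p = 0.0761 and 0.0545). Without controls 2, 8 and 12 that slope was 1.22 (edgeR adjusted p = 0.0531). Of the myeloid factors 1 of 17 rose with Irf8, its relative Irf4, and 1 of 6 fat genes fell (Fabp4). The remaining lists held 0 called genes, the 9 dendritic cell markers included. The neutrophil list had a median slope of -1.93 with 0 of 13 called. With scaling by total counts the median slope of all genes on Irf8 was 0.478, against 0.029, and 5586 genes rose and 71 fell. All 13 B-cell markers were called there, beside 9 of 16 T-cell markers.

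Cd163 moved with the complement genes of macrophages. Of 12760 genes 0.376% rose and 0% fell, which are 48 genes, and 4 of 10 tissue macrophage markers were among them. These were C1qa, C1qb and C1qc, the 3 chains of complement C1q, and the folate receptor Folr2. C1qc ran from 3.44 normalized counts in control 3 over 17.99 to 192 in control 1, and its slope was 0.94 ± 0.10 (r = 0.91, SE, edgeR adjusted p = 0.000549). C1qa had 0.94 ± 0.13 and C1qb 0.84 ± 0.11 (SE, edgeR adjusted p = 0.00278 and 0.00156). The highest libraries for C1qc were controls 1, 8, 11 and 2, and those for Cd163 controls 11, 1, 8 and 2. Without controls 2, 8 and 12 again 4 of 10 were called, with run code as a term 4 of 14, and without controls 11 and 5 3 of 9. Without control 11 alone the number of genes called was 17. With all libraries, 6 of the 10 tissue macrophage markers tested were not called, Clec4f among them. Of the growth factor receptors Kit, a mast cell and progenitor receptor, rose with Cd163 (slope 0.59 ± 0.11, SE, edgeR adjusted p = 0.0142). Control 11 was the highest library for both, with 316 normalized counts of Kit and 116 of Cd163. Kit was not called by limma, with run code as a term or without controls 11 and 5. No other list held a called gene, the 11 genes of haem handling and the 11 liver genes included. The other genes of highest r were the complement gene C2 (0.84) and Enpp3 (0.82), an enzyme of basophils and mast cells.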

How the data were processed

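Per the labels and the study's methods, RNA of whole blood was depleted of globin mRNA, selected for poly(A), made into stranded libraries and sequenced as paired ends. The authors clipped reads with fastq-mcf, aligned them to the Ensembl release 70 transcriptome of rat build rn5 with Bowtie 0.12.9 and quantified them with RSEM 1.2.0 (CASAVA 1.8.2 for base calls, per the submitters' processing notes). The authors deposited estimated counts without normalization. Between 19.3% and 27.1% of values per library had a fractional part, and all were rounded to whole numbers. RSEM divides reads among similar transcripts. The study replaced outlying values before its analysis, a step not applied here. Genes absent from any file were left out, because absence cannot be read as 0, which kept 18031.

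The lowest chi-square per degree of freedom between any pair of libraries was 48.0, so each counted as 1 sample. Each library bears a control identifier of its own in the labels. Genes were tested with edgeR 4.0.16 in R 4.3.3 (limma 3.58.1 and DESeq2 1.42.0 as alternatives), with TMM scaling, filterByExpr, the quasi-likelihood F-test and Benjamini-Hochberg adjustment over all genes tested, at 0.05. Slopes used each member's log2 level over the 16 libraries. In simulated counts of 12883 genes the slope test on Csf1r found 46.9% of genes with slope 1 and 89.0% with slope 2, with 9 false calls. Correlations used 100000 permutations (numpy 2.4.6). The members and lists were chosen with earlier results of these data known. Named were the members, for each the 3 genes of highest r with a mean of at least 100, and of each list up to 3 genes of highest absolute r; a few genes this rule names are not reported here. Others (Ngp, Ccl2 with Spi1, Cd36, Cd4, Spn with Spi1, Il34, Cx3cl1, Clec4f, Ctsd and Lgmn with Cd68, the called genes of counts of 5 or fewer) were named after their values were seen. Alternatives were other scalings, no filter, limma, DESeq2, run code as a term, globin genes left out and libraries left out.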

Additional observations from a re-analysis of the deposited data

Results flagged for a closer look

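In control 11 Cd163 was far above the remaining 3 libraries of run code D. Its 116 normalized counts exceeded the next highest, 17.0 in control 12, by 0.917 of the range of the code (n = 4). This was 1 of 16 comparisons of this kind over the members in codes B and D, and chance alone gives about 0.8. Control 11 was also the highest library for Cd68 (882), C1qb (396) and Kit (316 normalized counts). The cause was not tested.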

How the results depend on the processing

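The mean levels of the members moved by less than 1 SD under other scalings and with any 1 library left out, and 0 of 8 members were called between run codes under all alternatives run. The counts of genes moving with a member were less steady. With scaling by total counts they were 1442 for Spi1 (3218 in the report), 5657 for Irf8 (86), 131 for Klf4 (1), 27 for Csf1r (7), 595 for Cx3cr1 (7), 673 for Cd68 (0) and 1147 for Lyz2 (1971), 5 pairs of members were called in place of 1, and 0.0463% of genes differed between codes B and D in place of 2.3%. That scaling moved the median slope of all genes on Klf4 to 0.17, on Csf1r to 0.231, on Cx3cr1 to 0.182, on Cd68 to 0.277 and on Lyz2 to 0.085, from between -0.054 and 0.014, and gave 27 rising and 104 falling genes for Klf4 and 1034 and 113 for Lyz2. With DESeq2 size factors Cx3cr1 had 3. Without a filter on low counts Klf4 had 299, Csf1r 53, Cd68 288, and 3 pairs were called. By limma Irf8 had 180, Csf1r 4, Cx3cr1 18 and Cd163 23, and 0.0463% (A against B) and 0.0154% (A against D) of genes differed. By DESeq2 4.35%, 0.108% and 5.73% of genes differed for A against B, A against D and B against D. With run code as a term Irf8, Klf4, Csf1r and Cx3cr1 had 0, Cd163 had 9 and Lyz2 1182. Without controls 2, 8 and 12 Spi1 had 1582, Irf8 11, Klf4, Csf1r and Cx3cr1 0, Cd68 1 and Lyz2 779, and 0 pairs were called. Without the 2 libraries farthest from each median Irf8 and Cx3cr1 had 0, Klf4 244, Csf1r 1, Cd163 6, Cd68 88 and Lyz2 641, and 0 pairs were called. With Spi1 in the same fit Csf1r had 15.

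Leaving out 1 library at a time gave 2232 to 3211 genes for Spi1, 0 to 327 for Irf8, 1 to 199 for Klf4, 2 to 11 for Csf1r, 0 to 291 for Cx3cr1, 17 to 53 for Cd163, 0 to 297 for Cd68, 997 to 2165 for Lyz2, 1 to 2 pairs, 0% to 3.93% of genes for codes A against B, 0% to 0.015% for A against D and 0.0155% to 5.44% for B against D. The libraries that decided most were controls 6 and 8 for Irf8 (0 without either), control 4 for Klf4 (199), Cx3cr1 (291) and Cd68 (297), control 12 for Csf1r (2), control 11 for Cd163 (17) and control 8 for Lyz2 (997). The slope of Rag1 on Csf1r, -4.38 with all libraries and -4.74 to 1.35 with 1 left out, turned to 1.35 without control 12, 1.09 without controls 2, 8 and 12 and 1.12 without the 2 farthest libraries. Counts of 3 or fewer limit Cd163 in 7 libraries. The cause of these shifts was not tested. No paired analysis was possible because the labels give 1 group.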
